A study of Mus musculus with 8 samples.

Results

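The suppressor of cytokine signaling (SOCS) family was followed in HCA-1 liver tumors of mice 3 h after PFSUV-IMQ or saline. Its members were the 8 genes Cish, Socs1, Socs2, Socs3, Socs4, Socs5, Socs6 and Socs7, chosen by symbol and joined by Ensembl identifier to the 55536 genes of the count table. All 8 had enough counts to be tested among the 15998 genes that passed edgeR's filter on low counts. 1 of them, Socs1, rose after PFSUV-IMQ, from 7.26 ± 2.36 to 48.6 ± 35.9 normalized CPM (read counts scaled to library size, mean ± SD, n = 4 tumors each). For the other 7 members the change did not pass the test.

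SOCS proteins are the negative feedback arm of cytokine signaling. A cytokine receptor activates JAK kinases, these phosphorylate STAT transcription factors, and the STATs switch on SOCS genes, whose proteins bind the receptor or the kinase and dampen the signal. The SH2 domain of a SOCS protein recognizes phosphorylated tyrosine, and its SOCS box recruits elongins and a cullin to mark the bound protein for degradation. In liver, SOCS1 is best known for restraining interferon signaling, SOCS3 for restraining IL-6 signaling in the acute phase response, and SOCS2 and CISH for restraining growth hormone signaling.

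The tumors were grown from HCA-1 cells, a mouse hepatocellular carcinoma line, implanted in the liver of male C3H mice, so their RNA mixes cancer cells with host liver, stroma and immune cells. The treated group (labelled IMQNP) received 1 intravenous dose of PFSUV-IMQ on day 17, 4 mg/kg of imiquimod, an agonist of the endosomal receptor TLR7, in phospholipid-free small unilamellar vesicles, and the control group received saline. There were 4 tumors per group, and the labels number those given PFSUV-IMQ 1, 2, 3 and 4 and those given saline 1, 3, 4 and 5. No tumors given empty vesicles or free imiquimod were among these samples, so vesicle and drug cannot be told apart, and no transgene or deletion was named for either group. The labels give the age of the mice as 6 to 8 weeks and the methods as 4 to 6 weeks. Nothing in the labels ties 2 tumors to the same mouse, and p-values measure the spread between these tumors.

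Total counts per tumor were 16883911 to 27687756 after saline and 17008151 to 18527613 after PFSUV-IMQ, at which 3 counts correspond to 0.105 to 0.210 CPM. PFSUV-IMQ replicate 2 stood apart in several ways. It had a normalization factor of 0.843 against 0.981 to 1.09 in the other tumors, the largest share of mitochondrial counts (6.65%), and the highest value of its group in 320 of the 362 genes called higher (88.4%) against 34.8% of all tested genes. It was also the highest of its group in 6 of the 8 SOCS members, so the members, their order and the genes named beside them are also given without it below. The summed level of markers of other cells in the tumor overlapped between the groups in all 9 lists examined. 3 single markers did not overlap, Retnlg of neutrophils, which was above the saline range, and Vsig4 of macrophages and Emcn of endothelium, which were below it. Over all tested genes, 6.00% lay wholly above the saline range and 3.28% wholly below it. Of these 3 markers, Vsig4 was called lower (log2 fold change -1.62, adjusted p = 0.0453, edgeR), as were 0.200% of all tested genes. The log2 fold change was above 0 in all 7 tested neutrophil markers (median 1.16) and below 0 in 9 of 10 macrophage markers (median -0.30) and all 8 endothelial markers (median -0.44). It was below 0 in 6 of 8 dendritic cell markers (median -0.56) and above 0 in 5 of 6 B cell markers (median 0.72). The medians of the hepatocyte, T cell, NK cell and fibroblast lists were 0.20, -0.13, 0.33 and 0.08. Hepatocyte markers summed to 5263 to 38053 CPM after saline and 7349 to 38942 after PFSUV-IMQ, with saline replicate 4 and PFSUV-IMQ replicate 2 at the upper ends. PFSUV-IMQ replicate 2 also had the highest sums of its group for macrophage, neutrophil, T cell, NK cell and B cell markers, the last at 326 CPM against 24.0 to 38.7 in the other tumors of its group. Its neutrophil sum was 163 CPM. The other tumors of its group had 40.3 to 52.5 CPM, inside the saline range of 20.0 to 64.7. The marker medians without this tumor were not computed. The part of these differences in the results below was not tested. In bulk RNA, a change in the number of cells of a type and a change in the RNA per cell cannot be told apart.

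The start regions of the interferon- and cytokine-inducible members are shown first because STAT factors act there. RefSeq promoters (250 bases before to 50 bases after the transcription start, GRCm38.p6) were matched for 4 of the 8 members, and those of Socs1, Socs3 and Cish are printed 5′ to 3′ on the strand of the gene. Capitals mark matches, on either strand, to a STAT dimer motif (GAS, TTCNNNGAA) or to an interferon-stimulated response element motif (ISRE, GAAA, any 2 bases and GAAA).
Socs1, chr16:10785487-10785786, minus strand: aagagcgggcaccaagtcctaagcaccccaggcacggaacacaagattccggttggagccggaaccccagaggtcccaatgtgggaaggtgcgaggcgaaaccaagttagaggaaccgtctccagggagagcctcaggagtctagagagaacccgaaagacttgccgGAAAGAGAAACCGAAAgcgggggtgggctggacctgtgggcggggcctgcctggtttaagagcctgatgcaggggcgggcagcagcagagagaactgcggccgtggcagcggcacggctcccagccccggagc
Socs3, chr11:117969317-117969616, minus strand: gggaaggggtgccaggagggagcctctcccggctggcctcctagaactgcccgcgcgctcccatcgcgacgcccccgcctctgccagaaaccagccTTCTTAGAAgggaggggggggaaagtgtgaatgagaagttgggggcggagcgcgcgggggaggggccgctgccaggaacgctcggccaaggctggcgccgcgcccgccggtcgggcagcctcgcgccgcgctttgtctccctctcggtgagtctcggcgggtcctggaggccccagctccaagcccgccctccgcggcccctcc
Cish, chr9:107296409-107296708, plus strand: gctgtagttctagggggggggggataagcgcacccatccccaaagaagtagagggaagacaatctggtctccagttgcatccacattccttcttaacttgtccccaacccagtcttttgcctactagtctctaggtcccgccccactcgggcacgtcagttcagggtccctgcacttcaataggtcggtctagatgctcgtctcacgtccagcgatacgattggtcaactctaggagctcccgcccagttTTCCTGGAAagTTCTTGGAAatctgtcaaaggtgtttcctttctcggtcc
The Socs1 promoter held 2 overlapping ISRE matches, with first bases 83 and 77 bases before the start, and 0 GAS matches. The Socs3 promoter held 1 GAS match 154 bases before the start, and the Cish promoter held 2, at the start and 11 bases after it. Neither Socs3 nor Cish held an ISRE match, and the Socs4 promoter held neither motif. Over 32851 promoters of the same length, 8.30% held a GAS match and 3.44% an ISRE match, so the matches describe letters in these windows and not binding. The 3 promoters are those of the cytokine-inducible members for which a promoter was matched.

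Differences between the groups were tested with the quasi-likelihood method of edgeR, and p-values were adjusted (Benjamini-Hochberg) over all tested genes. A call required both an adjusted p below 0.05 and a change of more than 1 on the log2 scale. Standard errors (SE) and 95% intervals are those of the log2 fold change. Of the 8 members, 1 was called higher (12.5%), where 2.26% of all tested genes were called higher, and 0 were called lower, where 0.200% of all were. At an unadjusted p under 0.05, 2 members were higher and 0 lower, against 13.0% of all tested genes in either direction. DESeq2, edgeR's exact test and limma-trend each called 1 member higher and 0 lower, as edgeR's main test did. The log2 fold change was above 0 in 7 members, with a median of 0.35, and below 0 in Socs4. Over all tested genes it was above 0 in 7361 and below 0 in 8637, with a median of -0.03. In 2 members, Socs1 and Socs7, all PFSUV-IMQ tumors exceeded all saline tumors, as was so for 6.00% of all tested genes. In 0 members did all lie below them, as was so for 3.28% of all.

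**Figure D1:**
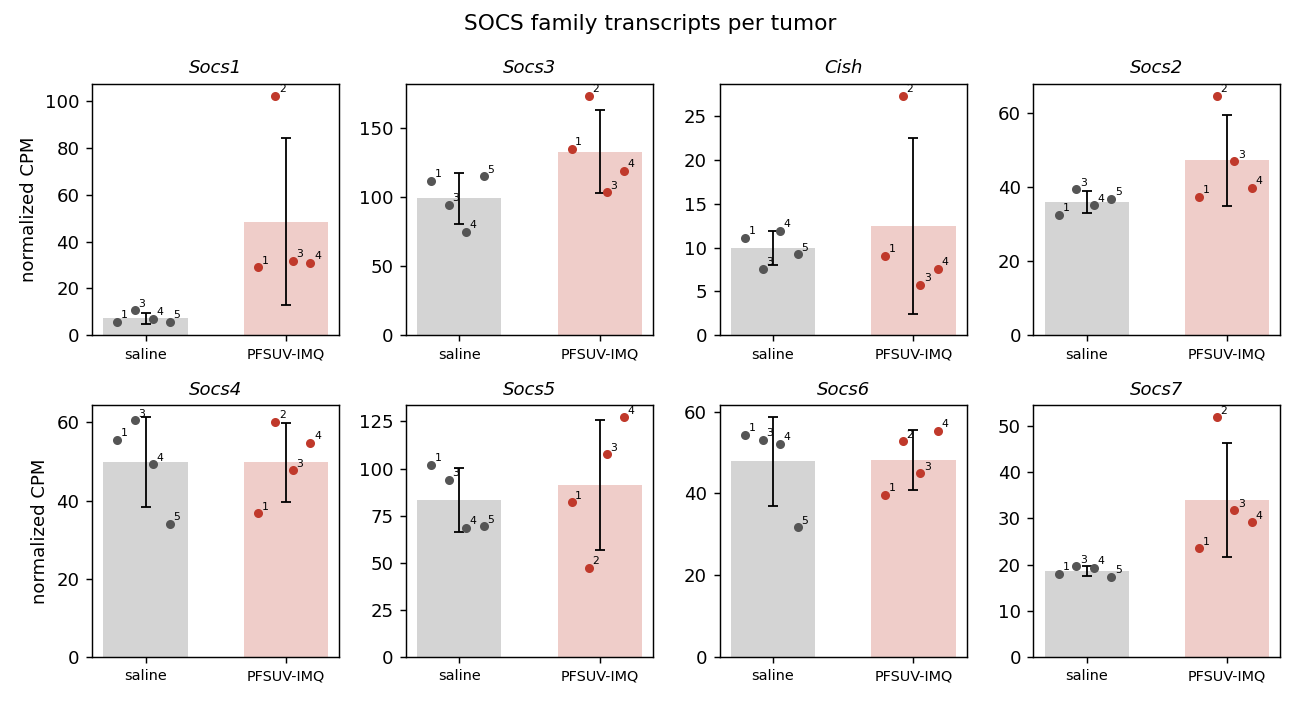
Normalized CPM of the 8 SOCS genes in each tumor (points, with replicate numbers), with bars for the mean and error bars for the SD of 4 tumors; each panel has its own axis from 0. Socs1 and Socs7 have no overlap between groups, and PFSUV-IMQ replicate 2 is the highest point of its group in 6 panels.

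Socs1 (ENSMUSG00000038037, chr16:10782240-10785536, minus strand) encodes a SOCS protein that can block JAK catalysis directly through a kinase inhibitory region and is itself induced by interferons. It measured 5.76, 10.7, 6.96 and 5.65 CPM in saline replicates 1, 3, 4 and 5, from 104 to 304 counts. After PFSUV-IMQ it measured 29.1, 102, 31.9 and 31.0 CPM in replicates 1 to 4, from 527 to 1467 counts. The groups did not overlap, and the lowest PFSUV-IMQ tumor was 2.72 times the highest saline tumor. The log2 fold change was 2.74 (SE 0.46, 95% interval 1.70 to 3.77, adjusted p = 0.0137, edgeR). An exact two-sided permutation test of the same values gave p = 0.0286, the smallest that 4 tumors against 4 allow.

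PFSUV-IMQ replicate 2 had the highest Socs1 level of the 8 tumors. Its 102 CPM were 3.34 times the mean of the other 3 tumors of its group, which lay within 29.1 to 31.9 CPM. Without it, the PFSUV-IMQ mean was 30.7 ± 1.44 CPM, 4.22-fold that of the saline tumors, and the log2 fold change was 2.06 (adjusted p = 0.00216, edgeR). The Socs1 call was lost without saline replicate 1, at a log2 fold change of 2.64 (adjusted p = 0.0627, edgeR), and held in the other 7 fits with a tumor left out.

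Socs3 (ENSMUSG00000053113, chr11:117966079-117970047, minus strand) encodes the member that binds gp130, the shared receptor subunit of the IL-6 family, and like SOCS1 carries a kinase inhibitory region. Saline replicates 1, 3, 4 and 5 had 111, 94.4, 74.7 and 115 CPM of Socs3. PFSUV-IMQ replicates 1 to 4 had 135, 173, 103 and 119 CPM. The highest 3 values were all in PFSUV-IMQ tumors, but replicate 3 of that group lay below saline replicates 1 and 5. From 98.8 ± 18.4 CPM in the saline group to 132 ± 29.9 CPM in the PFSUV-IMQ group, the log2 fold change was 0.42 (SE 0.21, interval -0.04 to 0.89, adjusted p = 0.452, edgeR), and Socs3 was not called. Without PFSUV-IMQ replicate 2 it was 0.25 (adjusted p = 0.632). The interval for all 8 tumors leaves room for no change and for a rise of up to 0.89 on the log2 scale.

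Cish and Socs2, a closely related pair, encode the members known for STAT5 signaling: CISH is a STAT5-induced inhibitor in lymphocytes, and SOCS2 limits growth hormone action in liver. Cish (ENSMUSG00000032578, chr9:107296026-107302784, plus strand) measured 11.1, 7.59, 11.9 and 9.23 CPM in saline replicates 1, 3, 4 and 5. In PFSUV-IMQ replicates 1 to 4 it measured 9.05, 27.4, 5.74 and 7.61 CPM. Only PFSUV-IMQ replicate 2 exceeded the saline range, and the means were 9.97 ± 1.95 and 12.4 ± 10.1 CPM in the saline and PFSUV-IMQ groups. The log2 fold change was 0.32 (SE 0.46, interval -0.71 to 1.34, adjusted p = 0.855, edgeR), and it was -0.43 (adjusted p = 0.491) without that tumor, when the PFSUV-IMQ mean was 7.47 ± 1.66 CPM. At least 7.46% of the exon bases of Cish overlap genes on the opposite strand, the share of the 1 gene with the larger overlap. The strand setting of the counting was not given in the sources used here.

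Socs2 (ENSMUSG00000020027, chr10:95385362-95417180, minus strand) had 32.5, 39.5, 35.1 and 37.0 CPM in saline replicates 1, 3, 4 and 5, a narrow range. It had 37.5, 64.8, 47.1 and 39.9 CPM in PFSUV-IMQ replicates 1 to 4, of which replicate 1 lay inside the saline range. The means were 36.0 ± 2.94 and 47.3 ± 12.4 CPM, a log2 fold change of 0.39 (SE 0.19, interval -0.04 to 0.83, adjusted p = 0.453, edgeR). Without PFSUV-IMQ replicate 2 it was 0.19 (adjusted p = 0.662). Socs2 shares 7.23% of its 50-base exon words with other genes, so part of its reads could be split between copies.

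Socs4, Socs5, Socs6 and Socs7 form the less studied branch of the family, with long amino-terminal regions. SOCS4 and SOCS5 are known for acting on the EGF receptor, and SOCS6 and SOCS7 for acting on insulin and KIT signaling. Within this branch, Socs7 (ENSMUSG00000038485, chr11:97362551-97398542, plus strand) came closest to a call. It had 18.0, 19.6, 19.3 and 17.3 CPM in saline replicates 1, 3, 4 and 5, the tightest group of the family. It had 23.6, 51.9, 31.7 and 29.2 CPM in PFSUV-IMQ replicates 1 to 4, all above the saline tumors, with the lowest at 1.20 times the highest saline value. The means were 18.6 ± 1.07 and 34.1 ± 12.4 CPM, a log2 fold change of 0.88 (SE 0.24, interval 0.34 to 1.41, adjusted p = 0.108, edgeR; exact permutation p = 0.0286). When PFSUV-IMQ replicate 2 was left out, the mean was 28.2 ± 4.18 CPM, 1.52-fold the saline mean, at a log2 fold change of 0.58 (adjusted p = 0.142). DESeq2's Wald test gave an adjusted p of 0.0291 and edgeR's exact test 0.0423, both with a log2 fold change under 1, so Socs7 was not called by any of the tests run.

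Socs4 (ENSMUSG00000048379, chr14:47276931-47296102, plus strand) had 55.5, 60.5, 49.2 and 34.1 CPM in saline replicates 1, 3, 4 and 5. In PFSUV-IMQ replicates 1 to 4 it had 36.7, 60.2, 47.7 and 54.7 CPM. The group ranges nearly coincided, with means of 49.8 ± 11.5 and 49.8 ± 10.1 CPM and an interval of the log2 fold change of -0.49 to 0.49. Leaving out PFSUV-IMQ replicate 2 gave -0.12 (adjusted p = 0.871). Socs5 (ENSMUSG00000037104, chr17:87107679-87137839, plus strand) had 102, 93.9, 68.5 and 69.3 CPM in saline replicates 1, 3, 4 and 5. In PFSUV-IMQ replicates 1 to 4 it had 82.1, 47.4, 108 and 127 CPM. Here PFSUV-IMQ replicate 2 was the lowest of all 8 tumors, at 0.448 times the mean of the other 3 tumors of its group, the reverse of its place in the genes above. The log2 fold change of Socs5 was 0.13 (SE 0.29, interval -0.52 to 0.78, adjusted p = 0.922, edgeR), and 0.32 without that tumor (adjusted p = 0.575).

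Socs6 (ENSMUSG00000056153, chr18:88665224-88927481, minus strand) had 54.3, 53.1, 52.1 and 31.7 CPM in saline replicates 1, 3, 4 and 5, of which replicate 5 stood below the rest. It had 39.6, 52.7, 44.9 and 55.4 CPM in PFSUV-IMQ replicates 1 to 4. The groups overlapped, with a log2 fold change of 0.01 (SE 0.20, interval -0.45 to 0.47, adjusted p = 0.991, edgeR) and of -0.055 without PFSUV-IMQ replicate 2 (adjusted p = 0.946). Socs6 shares 11.7% of its 50-base exon words with other genes. For Socs4 and Socs6 the intervals exclude a log2 change as large as 0.5 in either direction, whereas those of Cish and Socs5 do not.

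**Figure D2:**
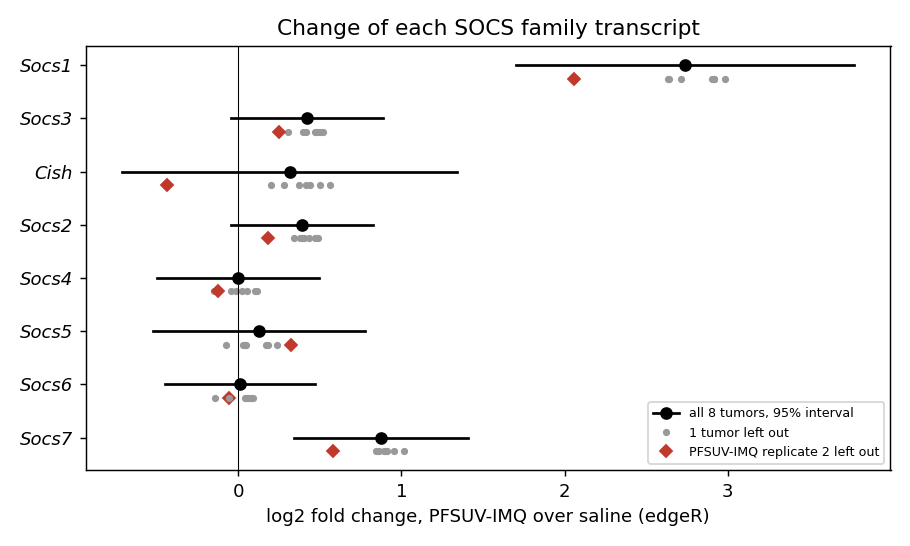
Log2 fold change of each SOCS gene, PFSUV-IMQ over saline, from edgeR: black points with 95% intervals for all 8 tumors, grey points for fits with 1 tumor left out, and red diamonds for the fit without PFSUV-IMQ replicate 2. The intervals of Socs1 and Socs7 lie above 0 and the other 6 include it; the Cish value is below 0 without that replicate.

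Each gene was also compared with its closest relative, as the difference of their log2 changes over the 8 tumors, with p-values adjusted over the 4 pairs. The log2 ratio of Socs1 to Socs3 CPM was -3.78 ± 0.60 in saline tumors and -1.65 ± 0.63 after PFSUV-IMQ (SD, n = 4). It differed by 2.13 (SE 0.43) with no overlap between the groups, at an exact permutation p = 0.0286 and an adjusted p of 0.114. That raw p is the smallest possible here, and 1 pair alone at that p cannot pass 0.05 after adjustment over 4. Socs6 against Socs7 differed by -0.78 (SE 0.25, exact permutation p = 0.0571, adjusted 0.114). Cish against Socs2 differed by -0.31 (SE 0.42, p = 0.486 by exact permutation) and Socs4 against Socs5 by -0.05 (SE 0.40, p = 0.914 by exact permutation), both within the spread between tumors.

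Levels were compared between members per kilobase of exon (CPM/kb). In saline tumors Socs3 was the most abundant at 34.2 ± 6.36 CPM/kb, followed by Socs5 at 13.0 ± 2.66, Socs4 at 7.25 ± 1.67, Socs6 at 4.21 ± 0.951, Socs2 at 3.78 ± 0.309, Socs7 at 2.55 ± 0.148, Socs1 at 2.50 ± 0.810 and Cish at 1.55 ± 0.304. The ranges of Socs6 and Socs2, and those of Socs7 and Socs1, overlapped, and the other neighbors in this order lay apart. After PFSUV-IMQ Socs3 was again the most abundant at 45.8 ± 10.4 CPM/kb, and Socs1 had the second highest mean at 16.7 ± 12.4, against place 7 in saline tumors. Socs5 followed at 14.2 ± 5.38, Socs4 at 7.25 ± 1.47, Socs2 at 4.96 ± 1.30, Socs7 at 4.69 ± 1.70, Socs6 at 4.24 ± 0.636 and Cish at 1.94 ± 1.57. In that order only Socs3 lay apart from its neighbor. The place of Socs1 rested on PFSUV-IMQ replicate 2. Without that tumor Socs1 was at place 3 with 10.5 ± 0.495 CPM/kb, below Socs5 at 16.5 ± 3.52 (n = 3), and 4 of the 8 members were at the same place. With the longest transcript as the length and all tumors, Socs1 was also at place 3, at 16.7 against 19.6 for Socs5, and only Socs3 and Cish, at either end of the order, had the same place.

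**Figure D3:**
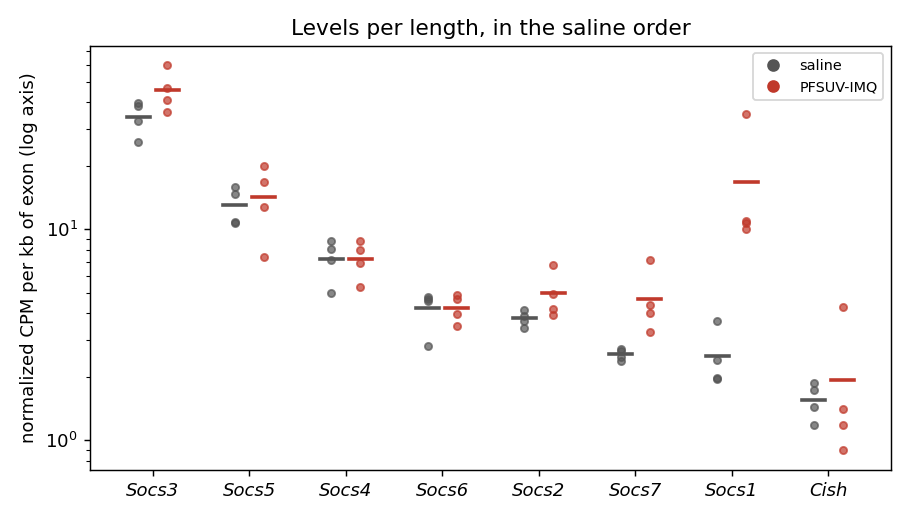
Level of each SOCS gene per length (normalized CPM per kb of exon, log axis) in saline (grey) and PFSUV-IMQ (red) tumors, with points for tumors and lines for group means, in the order of the saline means. Socs1 is next to last in saline tumors and has a mean of 16.7 CPM/kb after PFSUV-IMQ, with 1 tumor far above the other 3, which lie at 10.0 to 11.0 CPM/kb.

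Summed over the 8 members, the family measured 69.0 ± 7.69 CPM/kb after saline and 99.8 ± 23.2 after PFSUV-IMQ, with ranges of 58.9 to 76.9 and 84.6 to 134. Without PFSUV-IMQ replicate 2 the treated sum was 88.4 ± 4.85 (n = 3). Socs1 made up 3.64% ± 1.15 of that sum after saline (2.58% to 5.07% over tumors) and 15.5% ± 7.20 after PFSUV-IMQ (11.4% to 26.3%), or 11.9% ± 0.886 without replicate 2. Socs3 made up 49.4% ± 6.63 and 46.1% ± 5.13, close to one another in the saline and PFSUV-IMQ groups.

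The tested genes most like Socs1 over the 8 tumors were found by the root mean square difference of log2 CPM after each gene was centred on its mean, which had a median of 1.47 over all tested genes. They were Cd40 at 0.218, Zbp1 at 0.220 and Apol10b at 0.241. Cd40, a co-stimulatory receptor of antigen-presenting cells, measured 5.84 ± 1.33 CPM after saline and 39.5 ± 28.9 after PFSUV-IMQ (log2 fold change 2.75, SE 0.44, adjusted p = 0.0110, edgeR). Zbp1, an interferon-inducible sensor of Z-form nucleic acids, measured 44.1 ± 14.2 and 327 ± 178 CPM in the same order (2.89, SE 0.39, adjusted p = 0.00424). Apol10b, an apolipoprotein L family gene, measured 4.44 ± 1.81 and 25.5 ± 14.1 CPM (2.51, SE 0.42, adjusted p = 0.0127). Since they were picked for a profile like that of Socs1 in these tumors, their shared peak in PFSUV-IMQ replicate 2 and their difference between groups follow from the choice. Without that tumor the log2 fold changes of Cd40, Zbp1 and Apol10b were 2.08, 2.42 and 2.03. The only promoter matched among them, that of Apol10b, held 1 ISRE match and 0 GAS matches.

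**Figure D4:**
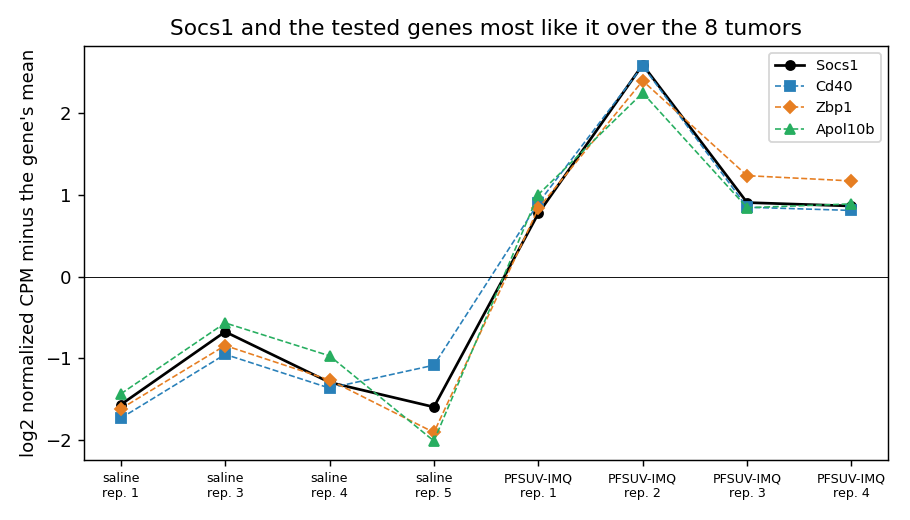
Log2 normalized CPM of Socs1, Cd40, Zbp1 and Apol10b in each tumor, each gene minus its own mean over the 8 tumors. The 4 lines lie below 0 in every saline tumor and above it in every PFSUV-IMQ tumor, with their highest point in PFSUV-IMQ replicate 2, a likeness by which the genes were chosen.

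The rest of the pathway was read from 9 lists with 148 genes in the count table, of which 127 were tested. Over all lists 10 genes were called higher (7.87% of those tested, against 2.26% of all tested genes) and 0 lower (against 0.200%). All 10 had their highest value of the group in PFSUV-IMQ replicate 2, as did 88.4% of all genes called higher. The count was 7 without that tumor, 5 without saline replicate 1, 4 without saline replicate 3, 4 without saline replicate 4, and 6 without PFSUV-IMQ replicate 3 or replicate 4. Of the 10, 3 were called in all 8 fits with a tumor left out, namely Stat2, Usp18 and Il15. Without PFSUV-IMQ replicate 2 the 10 log2 fold changes ran from 0.84 for Ccnd2 to 4.35 for Usp18, and Ccnd2, Il6, Pim1 and Spsb1 were no longer called. The 7 pathway genes called in that fit were therefore not all among these 10.

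Among 23 cytokine genes known to act upstream of SOCS genes, 16 were tested, 3 were called higher and 0 lower, with a median log2 fold change of 0.61. Il6, the cytokine that drives the acute phase response through STAT3, rose from 0.567 ± 0.228 to 3.52 ± 2.52 CPM (log2 fold change 2.61, SE 0.54, adjusted p = 0.0374, edgeR). Il15, a growth factor of NK and memory T cells, had a log2 fold change of 2.51 (SE 0.34, adjusted p = 0.00432). Il27, which encodes 1 subunit of a cytokine of activated antigen-presenting cells, had one of 2.44 (SE 0.48, adjusted p = 0.0286). Ebi3, the gene of the other subunit, had one of 0.0051 (SE 0.40, adjusted p = 0.997, edgeR). The Il6 call held in 1 of the 8 fits with a tumor left out (adjusted p 0.0260 to 0.124, edgeR), and the Il27 call in 4.

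Of 26 receptor genes restrained by SOCS proteins, 25 were tested, with a median log2 fold change of 0.17, and 1 was called higher. It was Osmr, the oncostatin M receptor, a partner of gp130, at 30.9 ± 4.45 CPM after saline and 83.8 ± 36.4 after PFSUV-IMQ (log2 fold change 1.44, SE 0.28, adjusted p = 0.0286, edgeR), a call held in 3 of the 8 fits with a tumor left out. Of the 10 JAK and STAT genes in the list, 1 was called higher, and the median was 0.05. At an unadjusted p under 0.05, 4 were higher and 0 lower, against 13.0% of all tested genes in either direction. The called gene, Stat2, part of the complex through which type I interferons act, rose from 102 ± 11.9 to 517 ± 81.3 CPM (log2 fold change 2.34, SE 0.19, adjusted p = 4.99e-04, edgeR). Stat3 measured 188 ± 22.6 and 336 ± 73.2 CPM and was not called (0.84, SE 0.19, adjusted p = 0.0578, edgeR). Its groups did not overlap, as was so for the 6.00% of all tested genes that lay wholly above the saline range.

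The SOCS box works through a ligase of elongins, cullin 5 and Rbx2, and 0 of its 10 tested genes were called, with a median log2 fold change of 0.04. The smallest p-values in that list were those of Rnf7, which encodes Rbx2, at -0.31 (SE 0.15, adjusted p = 0.430, edgeR), and of the conjugating enzyme gene Ube2f at 0.25 (SE 0.16, adjusted p = 0.591). At an unadjusted p under 0.05, 0 of the 10 passed, against 13.0% of all tested genes in either direction, and DESeq2, edgeR's exact test and limma-trend also called 0. Of 27 genes of other SOCS box proteins, 15 were tested, with a median of 0.00. The 1 called higher was Spsb1, which encodes a protein that marks inducible nitric oxide synthase for degradation, at 26.1 ± 2.89 and 53.1 ± 6.52 CPM (log2 fold change 1.02, SE 0.16, adjusted p = 0.00846, edgeR). Its value fell under the limit of 1 in 3 of the 8 fits with a tumor left out, where the adjusted p reached at most 0.0427 over all 8.

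Other inhibitors of the pathway, such as phosphatases and PIAS proteins, numbered 15 tested genes with 1 called higher and a median log2 fold change of 0.09. It was Usp18, an interferon-induced inhibitor at the type I interferon receptor, which rose from 17.6 ± 3.59 to 496 ± 276 CPM (4.82, SE 0.41, adjusted p = 5.94e-04, edgeR), and it was called in every fit with a tumor left out. Of 11 tested genes of other SOCS substrates and growth factor receptors, 0 were called, with a median of 0.28. In that list 1 was higher and 1 lower at an unadjusted p under 0.05, against 13.0% of all tested genes in either direction. The smallest p-values there were those of Flt3, a receptor of dendritic cell precursors, at -1.14 (SE 0.34, adjusted p = 0.147, edgeR), and Egfr at 1.32 (SE 0.53, adjusted p = 0.317). Flt3 passed as lower by DESeq2's Wald test (-1.13, adjusted p = 0.0355).

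Target genes of STAT3 and STAT5, the factors that SOCS3, SOCS2 and CISH restrain, were read side by side. All 15 STAT3 target genes had a log2 fold change above 0, with a median of 1.03, and 2 were called higher (4 by DESeq2's Wald test and by edgeR's exact test, 3 by limma-trend). The gene at that median was Hp (SE 0.66, adjusted p = 0.599, edgeR), whose groups overlapped. Hp and most of the list were highest in PFSUV-IMQ replicate 2. That tumor had the highest sums of its group for hepatocyte, macrophage, neutrophil, T cell, NK cell and B cell markers. The list median without that tumor was not computed. Il1rn, the interleukin-1 receptor antagonist, had a log2 fold change of 1.66 (SE 0.33, adjusted p = 0.0309, edgeR). Pim1, a survival kinase gene that is also a STAT5 target, had one of 1.06 (SE 0.22, adjusted p = 0.0354). Of 12 STAT5 target genes, 2 were called higher, with a median of 0.46, Pim1 and the cyclin gene Ccnd2 (1.12, SE 0.24, adjusted p = 0.0416, edgeR). Higher at an unadjusted p under 0.05 were 10 of the 15 STAT3 targets and 3 of the 12 STAT5 targets, and 0 were lower in either list. The share over all tested genes was 13.0% in either direction. With a tumor left out, the call of Il1rn held in 3 of 8 fits and those of Pim1 and Ccnd2 in 1 each. The neutrophil markers had a median log2 fold change of 1.16 in the same tumors, but their sum was above the saline range in PFSUV-IMQ replicate 2 alone. The part of any cell type in these lists was not tested. All lists were measured in the same 8 tumors, and no test compared one list with another.

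**Figure D5:**
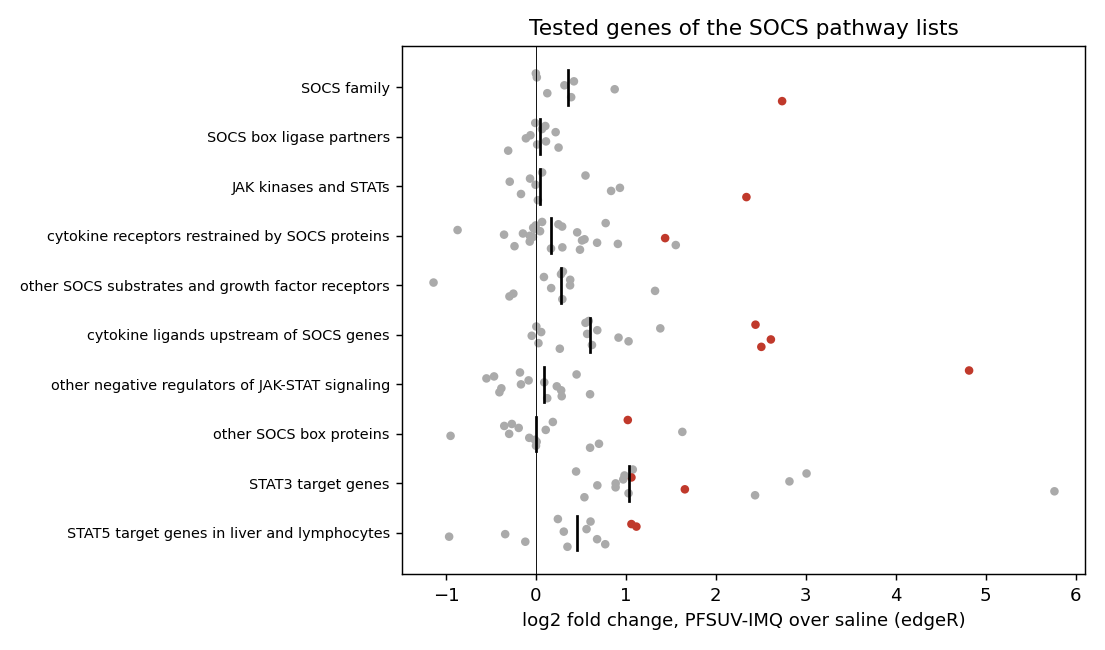
Log2 fold change (PFSUV-IMQ over saline, edgeR) of each tested gene of the SOCS family and of the 9 pathway lists, with red points for called genes and grey for the rest, and a black line at the median of each list. The medians of the STAT3 and STAT5 target lists lie at 1.03 and 0.46 and that of the SOCS family at 0.35, against -0.03 for all tested genes.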

How the data were processed

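RNA-seq of 8 HCA-1 tumors was taken from the processed tables, 4 tumors per group by the labels. The authors deposited raw read counts for each gene, and a signal table made by dividing the counts by DESeq2 size factors. That table, with 36670 genes, was used for gene symbols and departed from a single factor per tumor by at most 4.9e-10. The processing notes name Trimmomatic 0.38, HISAT2 2.1.0 and featureCounts 2.0.0, whereas the methods name TopHat and HTSeq, so which of them made the counts is unsure, and the genome build and strand setting are not given in the sources used here. All 55536 identifiers are in GENCODE M21 (GRCm38), from which coordinates and exon lengths came.

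Counts were fitted with edgeR 4.0.16 in R 4.3.3 (TMM normalization, default filter on low counts, quasi-likelihood test, Benjamini-Hochberg adjustment over 15998 genes). DESeq2 1.42.0 and limma 3.58.1 served as alternatives, and tables were made in Python 3.11.15 with pandas 2.3.3, numpy 2.4.6 and scipy 1.17.1. Log2 CPM had a prior count of 2. Single values were compared by exact permutation of the tumors (70 groupings). The floor of 3 counts covers counting error only. On simulated counts of 15998 genes for this comparison, 148 of 200 genes changed by a fold of 4 were recovered, and 2.63% of calls were false. The simulation drew each gene independently, with no outlying tumor and no other size of change. Its rates therefore need not hold for these tumors or for smaller changes.

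The members, gene lists and tests were chosen with earlier results of these data known. Some pathway genes and 1 list are not reported here. Named genes were all members, at most 4 called genes per list with the largest change or the 2 with the smallest p where none was called, and the 3 genes most like each called member. Hp, Ebi3 and Stat3 were named outside this rule. Alternatives were other normalizations, filters, prior counts, lengths and tests, a replicate block, and leaving out each tumor. No sequencing batch is given.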

Additional observations from a re-analysis of the deposited data

Results flagged for a closer look

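In 3 of the 16 groups of 4 tumors examined (8 members in each of the saline and PFSUV-IMQ groups), 1 tumor lay farther from the others than Dixon's 95% limit for the gap over the range allows. Chance alone flags about 5% of groups, and the members are measured in the same tumors, so these are not independent.

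Socs1 was 102 CPM in PFSUV-IMQ replicate 2, where the other tumors of its group held 29.1 to 31.9 CPM (gap over range 0.962). Cish was 27.4 CPM in the same tumor, against 5.74 to 9.05 CPM in the others (0.847). The direction of the Cish change depended on this tumor, and that of the Socs1 change did not. In the saline group, Socs6 was 31.7 CPM in replicate 5, against 52.1 to 54.3 CPM in the others (0.902), and its log2 fold change was -0.14 without that tumor (adjusted p = 0.705, edgeR).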

How the results depend on the processing

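Socs1 was called higher in all 8 other settings, with log2 fold changes of 2.02 (replicate block) to 2.76 (adjusted p 9.74e-08 to 0.0139). In the replicate block, PFSUV-IMQ replicate 2 and saline replicate 5 shared their number with no tumor, so neither bore on the group difference. With a tumor left out Socs1 was at 2.06 to 2.98, and the count of called members was 0 to 1 (0 without saline replicate 1). Socs7 passed the adjusted p, but not the fold limit, by DESeq2's Wald test (0.89) and by edgeR's exact test (0.88). The sign of 4 members changed. Cish was at -0.45 with the replicate block, in which PFSUV-IMQ replicate 2 does not bear on the change. It was at -0.43 to 0.56 with a tumor left out, the lowest without that same tumor. Socs4 was at 0.011 with DESeq2's size factors, 0.013 with at least 10 counts in every tumor, 0.010 by DESeq2, 0.0084 by limma-trend, and -0.15 to 0.12 with a tumor left out. Socs5 was at -0.077 to 0.32 with a tumor left out, and Socs6 at -0.055 with upper-quartile normalization, -0.20 with the block and -0.14 to 0.091 with a tumor left out. No member with a changed sign was called under any setting, and the cause was not tested.

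Among pairs, Socs1 against Socs3 ranged from 1.83 to 2.34 with a tumor left out, all at p = 0.0571, the smallest that exact permutation of 3 against 4 allows, and Socs4 against Socs5 from -0.43 to 0.089. Members at the same place in the order of PFSUV-IMQ levels numbered 2 of 8 with the longest transcript as length and 4 to 8 with a tumor left out. Pathway genes called higher numbered 8 to 15 over the other settings and 4 to 9 with a tumor left out, against 10 as reported, and those called lower 1 by DESeq2 (Flt3) and 0 with a tumor left out. Over all tested genes, 362 were called higher and 32 lower, against 572 and 114 by DESeq2, 541 and 92 by the exact test, 491 and 63 with no filter, 416 and 267 with the block, and 197 to 375 and 8 to 38 with a tumor left out. Both groups hold tumors numbered 1, 3 and 4. Their deviations from the group means correlated at 0.29, -0.27 and -0.32, and none of these saline tumors correlated best with its own number. Such correlations cannot decide whether same-numbered tumors were paired in handling, which the labels do not say. With the replicate block, 1 member was called, Socs1 at 2.02 (adjusted p = 0.00537). Upper-quartile normalization put the median of all genes at -0.10. Depth did not limit the members, whose lowest count was 103, far above the floor of 3.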

Other observations

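The serum amyloid genes of the STAT3 target list, acute phase genes, were chosen after their values were seen and lie outside the naming rule. Their differences were large but uneven between tumors, and none was called. Saa3 measured 7.47 ± 9.51 CPM after saline and 404 ± 526 after PFSUV-IMQ (log2 fold change 5.76, SE 1.31, adjusted p = 0.0544, edgeR). Its lowest PFSUV-IMQ tumor, at 21.3 CPM, lay just under the highest saline tumor, at 21.7 CPM, and PFSUV-IMQ replicate 2 was the highest at 1182 CPM. Saa1 and Saa2 had log2 fold changes of 2.82 and 3.01 with standard errors of 1.05 and 1.13 (adjusted p = 0.274 and 0.282, edgeR), and both groups overlapped. The part of hepatocytes or of any other cell type of the tumors in these values was not tested.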
